A study of Triticum aestivum with 9 samples.

Results

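The probe sets described here lost most of their signal early in wheat grain filling and then stayed level. They were selected on the measured signals themselves: mean log2 signal lower by 2 or more at P2 than at P1 with no overlap of the 3 and 3 arrays, a difference under 0.5 either way between P3 and P2, and a mean signal of at least 300 at P1. The rule was met by 100 of 61115 probe sets, or 0.164%, and by 0.596% of the 16768 probe sets whose mean P1 signal reached 300. Because these values chose the members, the members' changes are given as a description with no test.

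The grains came from bread wheat (Triticum aestivum), cultivar Jimai 20, grown in the field under ordinary farm management. P1 was 11, P2 15 and P3 20 days post-anthesis (days after flowering), with 3 arrays in each phase and 9 in all. The labels call the 3 samples of a phase biological replicates and mention field plots, and do not say whether arrays with the same number in different phases came from one plot. All phases share the cultivar and the field, and age is the only labelled difference between them, so neither the season nor another cultivar is represented. RNA was taken from grains without separating their tissues, so fewer cells of a type and less RNA per cell cannot be told apart.

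During grain filling, the wheat endosperm passes from cell division to the making of starch and storage proteins. Around it, the maternal tissues change as well: the nucellus, which nourishes the young endosperm, degenerates, and the green pericarp thins and later loses its chlorophyll. Transcripts of dividing cells belong to the start of filling, and those of desiccation and the maturing embryo to its later part.

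The array reads each transcript with a probe set of short oligonucleotides, and the deposited signal is a linear brightness. Names beginning Ta. or TaAffx. carry a number, called the name stem here, that marks a cluster of related transcripts. The ending _x_at marks probes that may bind unrelated transcripts, _s_at probes shared between transcripts, and _a_at probes shared by alternative forms of one gene. Wheat is hexaploid, so a signal is uncertain as the measure of a single gene copy. Probes differ in how brightly they bind, so an order of probe sets by signal is no order of transcript amounts.

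The trimmed mean signal was 500.1 on each array, which shows that the arrays were scaled to a common level. Background was taken on each array as the 95th percentile of 64 reporter probe sets, and lay between 89.4 and 153. It was 89.4 to 103 at P1, 104 to 153 at P2 and 99.7 to 116 at P3, and highest on P2 replicates 2 and 3, at 153 and 148. Markers fitted the label of developing seed: 17 storage protein probe sets were tested, and one of them, Ta.24114.15.A1_x_at of a gliadin, averaged 13076 at P1, 10195 at P2 and 22274 at P3. Over the 17, the median of P3 minus P1 was 0.08 on the log2 scale, so this example rose more than the list. Em, a late embryogenesis protein of the embryo and aleurone read by Ta.25025.1.S1_at, averaged 51.9 at P1, 1191 at P2 and 33747 at P3.

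As a group, the 100 members formed a bright and even set at P1 and a dim one afterwards. Their median signal was 1662, 1682 and 1719 on the P1 arrays, 235, 228 and 229 on the P2 arrays, and 233, 254 and 211 on the P3 arrays. The P1 arrays stood far above the others, and the P2 and P3 arrays lay in one range. Members together made up 0.712, 0.725 and 0.735% of the summed signal on the P1 arrays, 0.111, 0.104 and 0.108% on the P2 arrays, and 0.0980, 0.101 and 0.0899% on the P3 arrays. A group of 0.164% of the probe sets held more than its share of signal at P1 and less afterwards. Both follow from the rule, which asks for a bright P1 and a fall after it.

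Single members spanned a wide range of brightness. Mean signals ran between 309 and 34705 at P1, with a median of 1706, between 14.3 and 8330 at P2, with a median of 229, and between 12.7 and 6036 at P3, with a median of 238. The mean log2 difference of P2 minus P1 had a median of -2.75 over the members, or 6.71-fold lower, and that of P3 minus P2 a median of -0.05. Over all 61115 probe sets the same medians were 0.06 and 0.03. The first step was 3 or more on the log2 scale in 42 members, 4 or more in 16, 5 or more in 7 and 6 or more in 2, while 43 members lay under 2.5. These are sizes as measured: 6 of the 7 members at 5 or more, and both at 6 or more, were below background on all 3 P2 arrays, where the step is known only as a bound.

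How level the second step was varied within the limits that the rule allows. The difference of P3 minus P2 was under 0.1 either way in 22 members and under 0.25 in 56, with 46 members slightly higher at P3 and 54 slightly lower. The P3 arrays overlapped the P2 arrays in 79 members, lay above all of them in 10 and below all of them in 11. Across all probe sets, 16.0% had every P3 array above every P2 array and 12.8% had every P3 array below, and nothing is read from the difference, since the rule limits the second step. A large first step and a limited second step put mean P3 well below mean P1 by construction. The highest difference of P3 minus P1 among the members was -1.53 on the log2 scale.

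**Figure D1:**
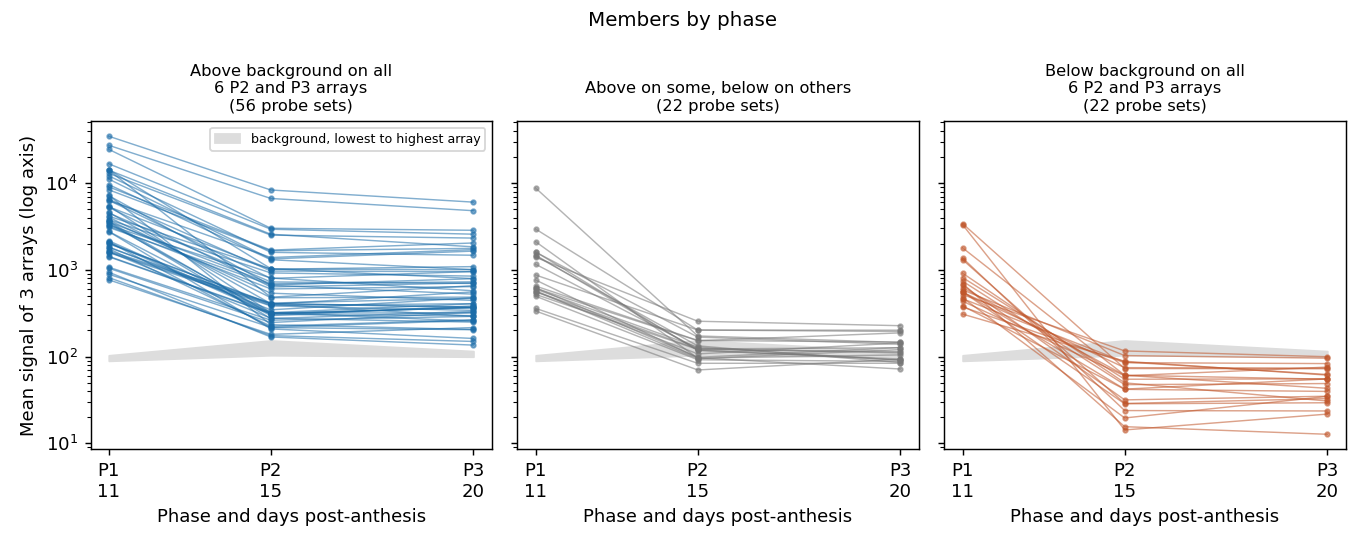
Mean signal of 3 arrays on a log axis at P1, P2 and P3 (11, 15 and 20 days post-anthesis), with 1 line per member and the grey band running from the lowest to the highest array background. The 56 members in the left panel stay above background at P2 and P3, 22 in the middle panel straddle it, and 22 in the right panel lie below it.

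Whether the level stage was measured at all depended on brightness. Of the 100 members, 56 were above background on all 6 P2 and P3 arrays, 22 were below it on all 6, and 22 were above it on some and below it on others. No member was below background at P1. By this background, the plateau was measured in the 56, and in the 22 below it on all 6 arrays only an upper limit on the signal is known from P2 on. The division rests on the 95th percentile: with the reporters' maximum, which 1 very bright reporter sets, all 100 members were below background on all 6 arrays, and with the reporters' median 0 were.

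The 56 members above background were the bright ones, with mean P1 signals between 768 and 34705 and a median of 3590. Their median difference was -2.47 for P2 minus P1 and -0.01 for P3 minus P2. Replicates were close, with a median SD on the log2 scale of 0.06 at P1, 0.16 at P2 and 0.14 at P3. Their P3 arrays lay above the P2 arrays in 9 of them, below in 11 and overlapped in 36. The backgrounds of 16.0% above and 12.8% below over all probe sets apply here as well, and nothing is read from these counts, since the rule limits the second step.

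The 22 members below background on all 6 arrays were dimmer from the start, with mean P1 signals between 309 and 3412 and a median of 606. Read against background, they were at least 2.32-fold to at least 25.6-fold lower at P2 than at P1, with a median bound of 4.54-fold. Their replicate SD on the log2 scale had a median of 0.13 at P1, 0.85 at P2 and 0.48 at P3. Finally, the remaining 22 members had a median P1 signal of 707.

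Brightness at P1 and detection later ran together across the group. All 10 members with a mean P1 signal of at least 10000 stayed above background on all 6 later arrays. So did 24 of the 27 members between 3000 and 10000, and 18 of the 29 between 1000 and 3000. Among the 34 members between 300 and 1000, 4 stayed above background and 17 were below it throughout. From the brightest range to the dimmest, the median first step was -2.72, -2.88, -2.85 and -2.52. With first steps this close, a brighter P1 leaves a brighter P2 and P3 by arithmetic, so nothing more is read from these counts.

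The brightest member was Ta.242.2.S1_at, with signals of 36279, 36224 and 31613 on the P1 arrays, 8793, 8004 and 8195 at P2 and 5829, 6045 and 6232 at P3. Its mean was 4.16-fold lower at P2 than at P1, and its P3 arrays lay below its P2 arrays, a difference of -0.46 on the log2 scale. It kept the highest signal of all members at P2 and P3. No gene is named for it, although its name stem is shared with a probe set of AGP-S, described with the name stems.

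Ta.7756.2.S1_x_at had 28313, 26378 and 27123 across P1, 7304, 5648 and 7006 across P2 and 4357, 4567 and 5497 across P3. All its P3 arrays lay below its P2 arrays, by 0.47 on the log2 scale between means, so it sits near the edge of the rule. Ta.10127.2.A1_at had 24964, 25085 and 23456 on the P1 arrays, 3076, 3093 and 2880 at P2 and 2974, 2795 and 2808 at P3. This member was 8.12-fold lower at P2 than at P1, and its P2 and P3 arrays overlapped, with a difference of -0.08 on the log2 scale.

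Ta.11954.1.A1_at had 16693, 17481 and 15919 across P1, 2793, 2937 and 3094 across P2 and 2566, 2758 and 2408 across P3. The P3 arrays lay just below the P2 arrays. Ta.10147.1.S1_x_at was less even, with 9987, 14858 and 14025 on the P1 arrays, 3225, 2286 and 2033 at P2 and 2381, 2313 and 2280 at P3. One P1 array and one P2 array stood apart from their replicates there, without any P1 array reaching the P2 range. Ta.3278.2.A1_at had 9136, 11567 and 12668 across P1, 1489, 1016 and 1506 across P2 and 1598, 1717 and 1622 across P3, with every P3 array above every P2 array.

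**Figure D2:**
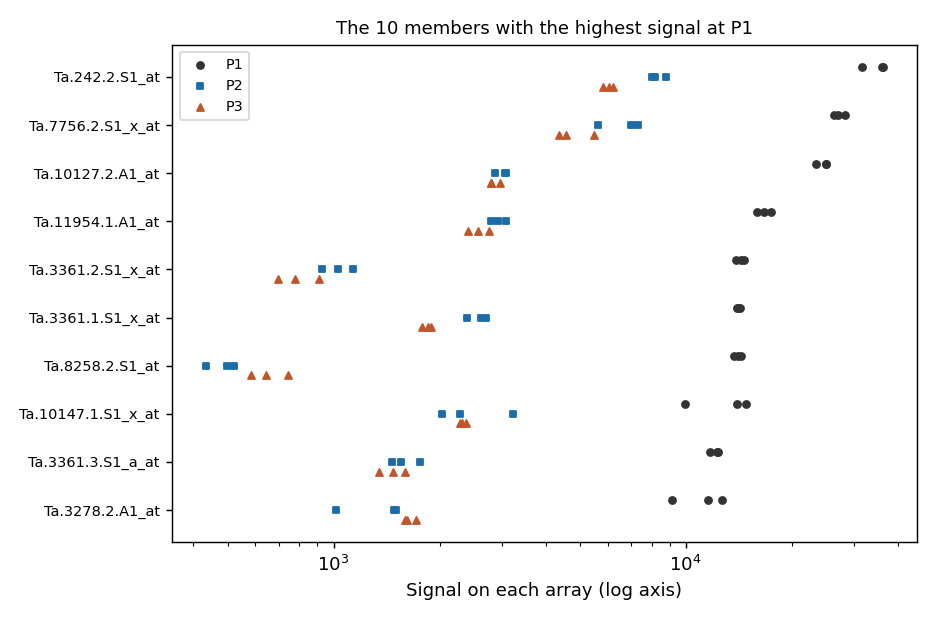
Signal on each array, on a log axis, for the 10 members with the highest mean at P1, with circles for the 3 P1 arrays, squares for the 3 P2 arrays and triangles for the 3 P3 arrays. All P1 circles lie to the right of every square and triangle of the same row, and in Ta.10127.2.A1_at the squares and triangles overlap.

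A single gene supplied 3 of the 10 brightest members. The platform annotation assigns Ta.3361.1.S1_x_at, Ta.3361.2.S1_x_at and Ta.3361.3.S1_a_at to LOC100037556, a locus for which the tables used here give no function. Ta.3361.2.S1_x_at had 13880, 14362 and 14622 on the P1 arrays, 1031, 1138 and 928 at P2 and 775, 910 and 694 at P3, which is 13.9-fold lower at P2 than at P1. Ta.3361.1.S1_x_at had 13978, 14268 and 14076 across P1, 2627, 2703 and 2392 across P2 and 1850, 1890 and 1787 across P3. In both, the P3 arrays lay below the P2 arrays.

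Ta.3361.3.S1_a_at had 12280, 12348 and 11733 on the P1 arrays, 1462, 1762 and 1552 at P2 and 1343, 1599 and 1479 at P3, with P2 and P3 overlapping. The fourth probe set of the gene, Ta.3361.1.S1_at, is no member: it averaged 14865 at P1, 3140 at P2 and 1899 at P3, and its second step of -0.73 passes the limit of 0.5. All 4 probe sets of LOC100037556 were thus lower at P2 than at P1, and the size of the second step differed between them.

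The other gene with an annotated member was LOC543355, again with no function in the tables. Its member Ta.581.2.S1_a_at had 608, 593 and 594 across P1, 69.7, 204 and 112 across P2 and 91.9, 118 and 62.1 across P3. The P1 arrays agreed closely, while the P2 arrays spread widely and 2 of them were below background. The gene's other probe set, Ta.581.1.S1_at, averaged 654 at P1, 255 at P2 and 216 at P3, a smaller first step of -1.37 on the log2 scale.

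The largest first steps, as measured, mostly ended below background. Ta.12772.1.S1_at had 3218, 3429 and 3284 on the P1 arrays, 9.05, 28.5 and 5.30 at P2 and 5.55, 57.8 and 1.87 at P3. All 6 later arrays were below background, so its signal was at least 24.9-fold lower at P2 than at P1, and its second step has no measured size. Ta.10658.1.S1_at had 3437, 3420 and 3381 across P1, 70.5, 59.4 and 88.6 across P2 and 30.8, 107 and 79.8 across P3. It was at least 25.6-fold lower at P2, the highest bound among the members below background on all 6 later arrays.

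Another 5 of the 10 largest first steps were also below background on all 6 later arrays. TaAffx.3194.1.S1_at averaged 1368 at P1, 23.9 at P2 and 23.6 at P3, and was at least 10.3-fold lower at P2 than at P1. TaAffx.128643.6.S1_at averaged 1792 at P1, 60.9 at P2 and 43.1 at P3, at least 13.5-fold lower at P2. Ta.9957.1.S1_at averaged 1307 at P1, 28.8 at P2 and 32.8 at P3, at least 9.78-fold lower at P2. These bounds are set by the P1 brightness, so TaAffx.106609.1.S1_at, with a mean of 696 at P1, was at least 5.20-fold lower, and Ta.13249.1.S1_at, with 477, at least 3.58-fold lower.

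In 2 of the 10 largest first steps, the low stage was measured above background on all 6 later arrays. Ta.8258.2.S1_at had 14407, 13757 and 14097 on the P1 arrays, 497, 520 and 435 at P2 and 643, 745 and 583 at P3. It was 29.2-fold lower at P2 than at P1, and every P3 array lay above every P2 array, by 0.44 on the log2 scale between means. Ta.22816.1.S1_x_at had 7089, 7314 and 7385 across P1, 205, 244 and 251 across P2 and 173, 239 and 204 across P3. It was 31.3-fold lower at P2 than at P1, with P2 and P3 overlapping. Ta.28328.2.S1_x_at, with 8264, 9246 and 8781 at P1, had 216, 98.6 and 205 at P2 and 182, 150 and 105 at P3, with 1 P2 array below background.

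Members at the limit of the second step show how the rule divides neighbours. The highest differences of P3 minus P2 were 0.49 in Ta.1072.1.S1_at, 0.47 in TaAffx.54667.1.S1_s_at and 0.46 in Ta.22762.2.S1_at, on the log2 scale. Ta.1072.1.S1_at had 1459, 1674 and 1704 on the P1 arrays, 354, 500 and 353 at P2 and 573, 555 and 543 at P3. Its P3 arrays all lay above its P2 arrays, whereas those of the other two overlapped. TaAffx.54667.1.S1_s_at was below background on 3 P2 and 2 P3 arrays and Ta.22762.2.S1_at on 2 P2 and 1 P3 arrays, so the size of their second step and their rank are not measured.

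The lowest differences of P3 minus P2 were -0.49 in Ta.1234.1.S1_at, -0.48 in Ta.368.1.S1_x_at and -0.48 in Ta.3361.1.S1_x_at. Ta.1234.1.S1_at was below background on all 6 later arrays, so its second step has no measured size. Just outside the limit were Ta.22819.1.S1_a_at, whose mean log2 signal differed by 0.51 between P3 and P2, and Ta.9909.1.S1_at, where the difference was 0.52 in size and P3 was the lower phase.

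At the limit on the first step, Ta.3199.1.S1_a_at, with -2.011, and TaAffx.91236.1.A1_at, with -2.0004, were just inside. Ta.10058.1.A1_at, with -1.996, and Ta.5933.1.S1_x_at, with -1.987, were just outside. At the limit on P1 signal, Ta.12420.1.S1_x_at, with a mean of 309, and TaAffx.54667.1.S1_s_at, with 335, were just inside. TaAffx.129824.3.A1_at, with 288, and Ta.14231.1.S1_x_at, with 273, were just outside.

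The members were 1 of 3 groups that began with the same first step. From P1 to P2, 292 probe sets, or 0.478% of all, met the first step together with the P1 signal of 300. Of these, 100 (34.2%) were level at P3, 105 (36.0%) were lower by a further 0.5 or more and 87 (29.8%) were higher again by 0.5 or more. The split depended on how dim signals were treated and on the scaling of the arrays. Each such setting chose its first-step probe sets anew, so its counts do not add up to 292. With dim signals raised to background the split was 123 level, 67 lower and 37 higher, and with a pseudocount of 50 it was 108, 73 and 35. With the arrays scaled to the poly-A controls it was 170 level, 76 lower and 945 higher.

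The 3 groups differed in brightness before the second step. Median P1 signal was 1706 in the level group, 2122 in the lower group and 582 in the higher group. The median difference of P2 minus P1 was -2.75 in the level, -2.98 in the lower and -2.32 in the higher group. At P2, 24 of the 100, 26 of the 105 and 30 of the 87 were below background on all 3 arrays. At P3 the counts were 23, 53 and 6, and nothing is read from them, since the division itself uses the P3 signal. The median second step was -0.05 in the level group, -1.13 in the lower group and 1.30 in the higher group, as the division fixes.

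**Figure D3:**
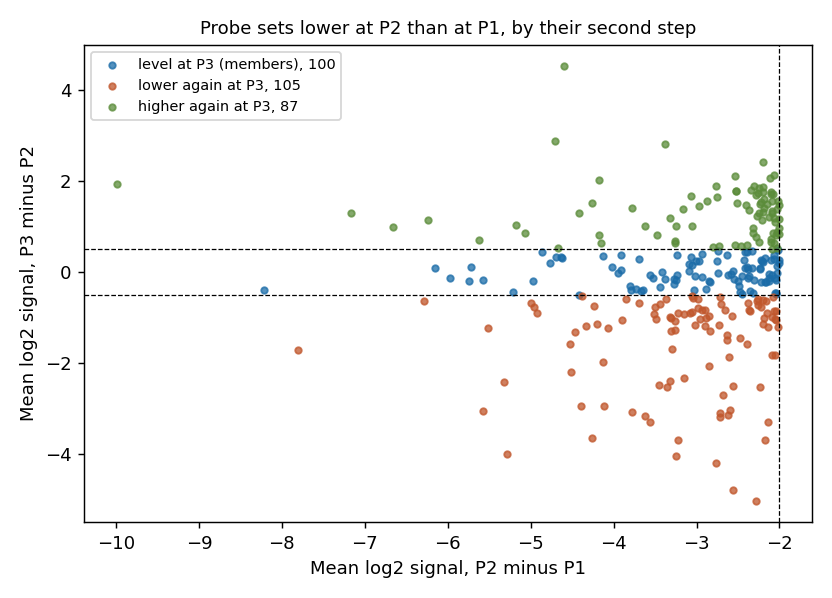
Mean log2 signal of P2 minus P1 (horizontal) against P3 minus P2 (vertical) for the 292 probe sets with the same first step, with 1 point each and dashed lines at the limits of the rule. The 100 level members fill the band within 0.5 of 0, with 105 points lower and 87 points higher.

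Few genes with the same first step carry a name, and those that do are not members. Ta.3.1.S1_at reads BMY1, a beta-amylase that releases maltose from starch chains. It had means of 2725 at P1, 350.4 at P2 and 176 at P3. Its second step was -1.02 as deposited and -0.01 with the arrays scaled to the poly-A controls. Ta.27777.1.S2_at reads an avenin-like storage protein and averaged 21391 at P1, 5160 at P2 and 11110 at P3, so it was higher again at P3. As deposited, both had the members' first step and left the level course in opposite directions.

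The name stems are a feature of the members that the rule did not use. The 100 members belong to 90 stems, of which 8 hold several members, 18 in all: Ta.10147 and Ta.3361 hold 3 each, and Ta.14302, Ta.5933, Ta.10127, TaAffx.134856, TaAffx.24287 and TaAffx.128643 hold 2 each. Members of a stem can share sequence and are not independent of each other.

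Another 80 probe sets that are not members share one of 36 of these stems, and 53 of them, in 32 stems, had a mean P1 signal of 300 or more. Of the 53, 26 (49.1%) had a first step of 2 or more downward, against 1.74% of all probe sets of that P1 brightness. A first step of 1 or more downward was found in 42 of them (79.2%), against a background of 7.88%. Most of the 53 were thus lower at P2, while 10 differed by under 1 and 1 was higher by 1 or more at P2. Probe sets of a stem can share sequence with a member, and some of the 53 share a stem with each other. They are therefore not independent, and their share is given as a description.

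The second step of these 53 is limited by construction, since a probe set with both steps would be a member. The 53 had a median first step of -1.99 and a median second step of -0.70. For the second step, 34 were lower by 0.5 or more, 15 lay within 0.5 and 4 were higher by 0.5 or more. Of the 26 with the members' full first step, 22 were lower again at P3 and 4 were higher again.

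**Figure D4:**
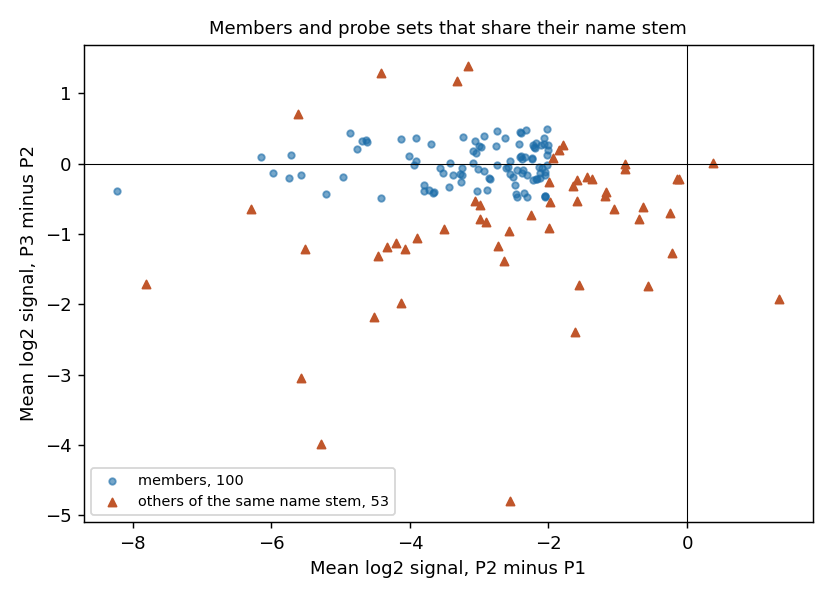
Mean log2 signal of P2 minus P1 (horizontal) against P3 minus P2 (vertical) for the 100 members (circles) and for the 53 other probe sets of the same name stems with a P1 signal of 300 or more (triangles). Most triangles lie left of 0 like the members, and 34 of the 53 lie at or below -0.5 on the vertical axis.

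The stems named next were chosen after their values were seen. In stem Ta.10147, the members Ta.10147.2.S1_x_at, with a first step of -2.42, and Ta.10147.3.S1_at, with -2.07, were joined just outside the rule by Ta.10147.3.S1_x_at. That probe set had 6426, 6907 and 6876 across P1, 1351, 2077 and 1962 across P2 and 1928, 2128 and 1596 across P3. Its P2 and P3 arrays overlapped, with a first step of -1.93 and a second of 0.08.

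In stem Ta.8258, probe sets that were all lower at P2 than at P1 differed in the second step. The member Ta.8258.2.S1_at was slightly higher at P3 than at P2, as given above. Ta.8258.3.S1_at had 17582, 18411 and 18477 on the P1 arrays, 361, 427 and 362 at P2 and 18.4, 62.7 and 86.0 at P3, where all 3 arrays were under background. Ta.8258.1.S1_x_at had 3140, 3427 and 3647 across P1, 55.7, 84.6 and 70.1 across P2 and 109, 128 and 103 across P3. It was below background on all 3 P2 arrays, so the size of its second step is not measured, although every P3 array lay above every P2 array.

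In stem Ta.3249, the member Ta.3249.3.A1_at had 1351, 1408 and 1572 on the P1 arrays, 47.9, 157 and 194 at P2 and 75.9, 76.5 and 104 at P3. Ta.3249.1.S1_at had 6565, 6209 and 6351 across P1, 968, 1223 and 1065 across P2 and 29.8, 36.4 and 54.8 across P3. That probe set had a second step of -4.79 on the log2 scale as measured, and all its P3 arrays were below background. Of the member's own later arrays, 1 at P2 and 2 at P3 were below background.

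The brightest member and a named gene share a stem without sharing a course. Ta.242.1.S1_at reads AGP-S, the small subunit of ADP-glucose pyrophosphorylase, which makes the sugar donor for starch synthesis. It had 43178, 42967 and 39813 on the P1 arrays, 37146, 42023 and 35237 at P2 and 31228, 32618 and 34466 at P3, a first step of -0.14 and a second of -0.22. Ta.242.2.S1_at lost most of its signal, and the name AGP-S is not carried over to it.

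Likewise, the member Ta.22762.2.S1_at, with a first step of -2.75, shares a stem with Ta.22762.3.S1_a_at of LOC100037598. That probe set had 19602, 20770 and 19764 at P1 and 25720, 25779 and 26684 at P2, and so was slightly brighter at P2. In these pairs a shared stem did not go with a shared course.

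The kinds of probes among the members were set beside those of all probe sets above the same P1 floor, which were not matched to the members in brightness. Endings in _x_at made up 21% of the members, against 19.0% of probe sets with a P1 signal of 300 or more and 11.1% of all. Endings in _a_at made up 6% of the members, against 13.1% and 5.43%. Names beginning TaAffx. made up 29% of the members, against 18.0% of probe sets above that floor and 48.6% of all. Among probe sets with the same first step they made up 24.8% of the group lower at P3 and 18.4% of the group higher at P3. A gene symbol was given to 4 members, or 4%, against 4.47% of the probe sets above that floor and 2.08% of all.

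None of the 4 annotated members has a symbol or synonym that says what the gene does, and 199 other probe sets do. The processes behind the members' loss can therefore not be read from these tables. Among the named genes of grain tissues, 96 probe sets in 11 lists were tested between phases by limma, with calls at an adjusted p under 0.05 and at least 2-fold. None of the 96 is a member, and 2, BMY1 and the avenin-like protein, have the members' first step.

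For P2 against P1, 13 of the 96 rose and 5 fell, where 6.89% of all 36669 tested probe sets rose and 5.79% fell. For P3 against P2, 12 rose and 9 fell, against backgrounds of 4.46% and 2.77%. The 9 late embryogenesis probe sets, which read 4 genes, supplied 9 of the 13 rises and 8 of the 12. Several probe sets can read 1 gene, so the calls in the lists are not independent. Scaling the arrays on their median changed the split over all probe sets from P1 to P2 to 2058 higher and 2785 lower calls, against 2528 and 2124 as deposited. Scaling to the poly-A controls gave 752 higher and 13671 lower calls from P1 to P2, and 18736 higher and 191 lower from P2 to P3, against 1634 and 1016 as deposited.

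Genes of photosynthesis, which mark the green pericarp, were mostly called in the second step with the arrays as deposited. Of 14 probe sets, 1 rose and 1 fell at P2 against P1, and 7 fell at P3 against P2, with medians of -0.01 and -1.04 on the log2 scale. PsbO, a subunit of the oxygen-evolving complex read by Ta.841.1.S1_a_at, averaged 8286 at P1, 4567 at P2 and 1703 at P3. Any difference in timing between these genes and the members was not tested, since the rule fixes the members' timing. With the arrays scaled to the poly-A controls, the list's first step had a median of -0.89, with 1 of the 14 higher at P2 than at P1. Its second step then had a median of -0.04, so the timing in this list depended on the scaling.

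Genes of cell division mark tissue that is still growing. The list used here mixes such genes with tubulins and actins, so it does not describe cell division alone. Of its 30 probe sets, which read 12 genes, 1 fell at P2 against P1, and at P3 against P2 1 rose and 1 fell. The probe set that fell at P2, Ta.29542.1.S1_x_at of a histone H2A, averaged 478 at P1, 212 at P2 and 451 at P3, and so was higher again at P3. Nothing is read from these counts, which are small. With the arrays scaled to the poly-A controls, 1 of the 30 was higher at P2 than at P1, with a list median of -0.89, and 29 were higher at P3 than at P2, with a median of 1.24. Late embryogenesis genes ran the other way from the members: 9 of 9 probe sets, which read 4 genes, rose at P2 against P1 and 8 rose again at P3 against P2. All 9 were higher at each later phase under every scaling tried.

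None of the 4 starch synthesis probe sets was called at P2 against P1, and 2 of the 17 storage protein probe sets fell. The other lists were small. Of 4 probe sets for sugar cleavage and transport 2 rose at P2 against P1, of 8 for defence 1 rose, and of 6 for antioxidant enzymes and 2 for lipid transfer proteins none was called in that step. One cell wall probe set was tested and not called, and no probe set matched the list for proteolysis and cell death.

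Membership depended on how the arrays were scaled. Quantile, median and hybridization control scaling kept 91, 94 and 95 of the 100 members, and 87 met the rule under all 3. The poly-A controls, transcripts added to the RNA before labelling, were 0.88 higher at P2 than at P1 and 1.01 lower at P3 than at P2 on the log2 scale, whereas the hybridization controls differed by 0.13 and 0.03. With the arrays scaled to the poly-A controls, none of the 100 members met the rule and 170 other probe sets did.

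Under that scaling all 100 members were higher at P3 than at P2, by 0.513 to 1.496 with a median of 0.96. The median over all probe sets was then -0.82 at P2 against P1 and 1.04 at P3 against P2. This scaling moves all probe sets of an array alike, so the members' second step stayed near that of the whole array by construction. The plateau is thus a level relative to the bulk of the signal. How much poly-A control was added per amount of grain RNA is unstated in the labels, and its part in the result was not tested.

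**Figure D5:**
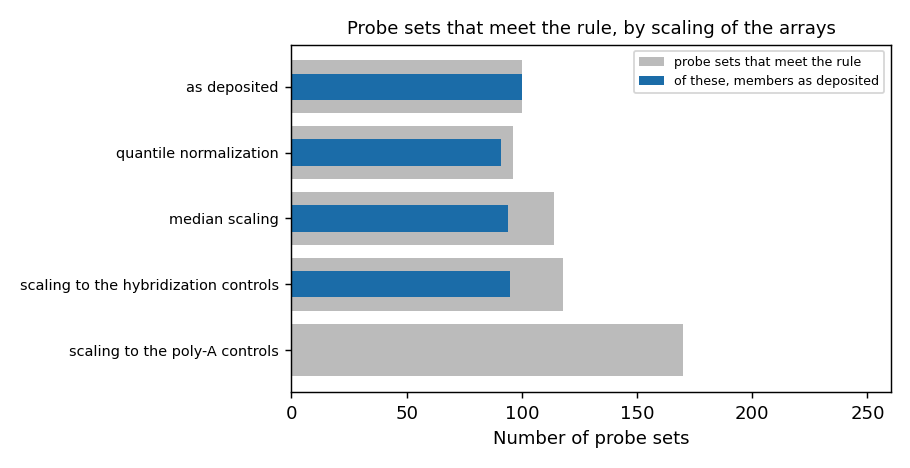
Number of probe sets that meet the rule (grey bars) with the arrays as deposited and under 4 other scalings, and how many of these are among the 100 members as deposited (blue bars). Quantile, median and hybridization control scaling keep 91, 94 and 95 of the members, and poly-A control scaling keeps 0 of its 170.

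Membership also depended on single arrays near the limits of the rule. Leaving out 1 array at a time left 94 to 108 probe sets that met the rule, with 79 to 99 of the 100 among them, and 52 members met it whichever array was left out. Of these, 51 also met it under quantile, median and hybridization control scaling. Without P2 replicates 2 and 3, whose background was highest, 96 probe sets met the rule and 68 of them were members.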

How the data were processed

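The authors deposited linear intensity values for 61290 probe sets on each of 9 arrays, made with MAS5 per the submitters' processing notes (no version in the sources used here). No further normalization was applied. Control probe sets (111 Affymetrix and 64 reporter) were left out. Groups came from the sample titles. Log2 signals were taken with a pseudocount of 0. A probe set under an array's 95th reporter percentile was counted as below background there. For a member below background on every array of a phase, the bound sets its P1 mean against the background of those arrays, as means of log2 values. Errors are SDs over 3 arrays, whose number limits the precision.

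limma 3.58.1 in R 4.3.3 gave the calls over all probe sets: 1 model with phase as the factor, an intensity trend and Benjamini-Hochberg adjustment, without the 40% lowest probe sets by mean log2 signal, which left 36669, 99 of the members among them. The script was tested on simulated data. Deviations from the phase means correlated by -0.05 to 0.03 over 9 pairs of arrays with the same replicate number. Over 18 pairs with different numbers they correlated by -0.04 to 0.06. With 3 arrays per phase, these values cannot show whether the numbers pair the arrays. Members and lists were chosen with earlier results of these data known. The text names annotated members and other probe sets of their genes, the 10 members with the largest first step, the 10 brightest at P1, the 3 brightest at P3, the 3 extremes of the second step each way, and 2 probe sets each side of each limit. Of the 12 lists, genes called between phases are given as counts with examples. The platform annotation and the RefSeq table of assembly IWGSC CS RefSeq v2.1 gave the names.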

Additional observations from a re-analysis of the deposited data

How the results depend on the processing

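With limits of 1.5 and 3 on the first step, 176 and 42 probe sets met the rule, and with limits of 0.25 and 1 on the second, 56 and 170, since the limits themselves choose the members. Leaving out 1 array gave 94 to 108. The members' median first step was -2.70 under quantile, -2.87 under median, -2.88 under hybridization control and -3.63 under poly-A control scaling. It was -2.40 with dim signals raised to background and -2.41 with a pseudocount of 50. With 1 array left out, the median was -2.87 to -2.67, taken over the 94 to 108 probe sets chosen anew and not over the 100 members. The median of P3 minus P1, -2.76 as deposited, was -2.94 under median and -2.93 under hybridization control scaling, and -2.52 both with dim signals raised and with the pseudocount. The median second step was 0.96 under poly-A scaling. The first-step probe sets were chosen anew in each setting. Their split gave 170 level and 945 higher under poly-A scaling, and 35 higher with the pseudocount. With dim signals raised to background it gave 67 lower and 37 higher. With background as the reporters' maximum, which 1 very bright reporter sets, 100 members were below it on all later arrays, and with their median 0. Under poly-A scaling limma called 14423 probe sets at P2 against P1 and 18927 at P3 against P2, against 4652 and 2650 as deposited. With the replicate number as a block, limma called 4574 at P2 against P1, 2597 at P3 against P2 and 4773 at P3 against P1, the last against 4813 without it. Leaving out both P2 arrays of higher background was chosen after seeing the data. For named probe sets, the first step moved by less than the replicate spread in 373 of 420 recomputed values and the second in 399 of 420. The causes of these changes were not tested beyond what each setting does by construction.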
